A study of Mus musculus with 6 samples.

Results

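The tumor necrosis factor (TNF) superfamily, a set of secreted and membrane-bound ligands and the receptors that bind them, was examined in Wnt1-YL cells with and without knockdown of Sca-1. The genes were taken by name. They are every gene with a probe set of its own whose symbol starts with Tnfrsf (receptors) or Tnfsf (ligands), together with Tnf, Lta, Ltb, Ltbr, Fas, Fasl, Cd40, Cd27 and Cd70. This gave 36 of the 18193 genes measured, of which 12 encode ligands, 23 encode receptors and 1, Tnfsf13os, is an RNA gene that the name rule takes in. The rule itself used no measured value, though members and lists were chosen with earlier results of these data known. Each gene is represented by its probe set of highest mean log2 value over the 6 arrays. The reference gene table holds 42 genes that the rule would take, and the other 6 (Tnfrsf26, Tnfsf12, Tnfsf13, Tnfsf15, Tnfsf18 and Tnfsfm13) had no probe set of their own and were not analysed here as single genes.

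Wnt1-YL is a line derived from a mammary carcinoma of an FVB/n mouse carrying the MMTV-Wnt1 transgene, in which a mammary tumor virus promoter drives Wnt1 in the mammary epithelium. All cells came from that 1 line, carried a lentiviral pLKO vector and were selected with puromycin. They were grown in culture in medium with serum, insulin, EGF and gentamicin. The 3 shLuc samples expressed a hairpin against luciferase, the control. The 3 shSca-1 samples expressed hairpin RNA against Sca-1, the product of Ly6a, and the number of different hairpins is not stated. The comparison asks which genes differ in RNA level when Sca-1 is lowered. RNA was hybridized to 1 Affymetrix array per sample. The labels call the replicates biological and do not say whether they were separate transductions, so the p-values measure the spread between these arrays.

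Most receptors of this superfamily form trimers around a trimeric ligand and pass the signal inward through adaptor proteins. Receptors with a death domain can start apoptosis or necroptosis, others recruit TRAF proteins and activate the transcription factor NF-kB, and decoy receptors bind ligand without signaling. In the mammary gland the ligand RANKL and its receptor RANK are known for their part in the expansion of the epithelium, and on immune cells many members act as costimulatory signals.

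Ly6a, which encodes Sca-1, had intensities of 7646, 7362 and 2843 in shLuc replicates 1, 2 and 3 and of 285, 314 and 306 in shSca-1 replicates 1, 2 and 3, so the target was lower on every array labelled as its knockdown. The array medians were between 37.3 and 40.7, and an intensity of 100 is used here as a description of a signal well above them. The array of shLuc replicate 3 stood apart from the rest. Its highest correlation with any other array was 0.924, against at least 0.957 for each of the others. The summed intensity of 12 luminal mammary markers came to 20179 there, beside 564 to 616 elsewhere, and 10 of the 12 were over 4 times higher than on every other array. The sum of 8 basal markers was 18126 there, beside 29156 to 33325 elsewhere. The main results below are therefore given on all 6 arrays and also without shLuc replicate 3. In RNA from whole cultures, fewer cells of a type and less RNA per cell cannot be told apart. The markers of T and NK cells (7 measured), B cells (4), neutrophils (2) and endothelial cells (5) were under 100 on every array, and 6 of 10 macrophage and monocyte markers were. The macrophage and monocyte markers summed to 828, 792.5 and 1234 in shLuc and to 599, 671 and 769.8 in shSca-1 cells. The 8 fibroblast markers, 6 of them under 100 on every array, summed to 226, 184 and 391 in shLuc and to 451, 425.5 and 432 in shSca-1 cells. Neither pair of sums overlapped between the groups, while the sums of the other marker lists did. Among single genes, all 3 shSca-1 arrays lay above all 3 shLuc arrays for 7.18% and below them for 11.5%. By mean log2 intensity, 4 of the 8 fibroblast markers were higher in shSca-1 and 4 lower, or 5 and 3 without shLuc replicate 3. At an unadjusted p under 0.05 in limma, Col1a1 and Thy1 were higher in shSca-1 (0.0352 and 0.0422), 25% of the fibroblast markers. Lyz2 was higher too (0.0493), 10% of the macrophage and monocyte markers, against 10.6% of all genes. Of that list, Lyz2 and Ptprc had all 3 shSca-1 arrays above all 3 shLuc arrays (20%, against 7.18%) and Csf1r below (10%, against 11.5%). Without shLuc replicate 3, Cd68 was lower at an unadjusted p under 0.01 and a fold over 1.5 in limma (10%, against 2.91%). By the same criterion the basal marker Krt17 was lower on 6 arrays (12.5%, against 1.52%). Without shLuc replicate 3, Acta2 and Krt17 were lower (25% of the basal markers, against 2.91%). Other basal markers went the other way. Krt5 and Krt14 had all 3 shSca-1 arrays above all 3 shLuc arrays (25%, against 7.18%) and Krt17 below (12.5%, against 11.5%). The part of these cell types in the results was not tested.

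The receptors made up nearly all of the clear signal. An intensity of 100 was reached on at least 1 array by 11 of the 36 genes, 10 of 23 receptors and 1 of 12 ligands, Tnfsf9. Among all genes 9848 of 18193 reached it, a larger share than in the superfamily or among its receptors. Ltbr, Tnfrsf12a, Tnfrsf1a, Tnfrsf21, Tnfrsf22 and Tnfrsf23 were at 100 or more on every array, 6 genes in all. The remaining 25 genes, 11 ligands, 13 receptors and Tnfsf13os, stayed under 100 on every array, and 16 of them never rose above the highest array median. The list used here held 18 known ligand and receptor pairs with both genes measured, and it is not complete. It leaves out, for example, Tnfsf10 with Tnfrsf22 and with Tnfrsf23. Both partners reached 100 in 1 listed pair, Tnfsf9 and Tnfrsf9, only the receptor did in 8, and neither did in 9. Tnfrsf9 reached 100 on the shSca-1 arrays alone, and Tnfrsf11b, the receptor in 2 of those 8 pairs, on shLuc replicate 3 alone. A dim probe set can reflect little RNA or a weak probe, so these counts describe the signal and do not order the genes by abundance.

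**Figure D1:**
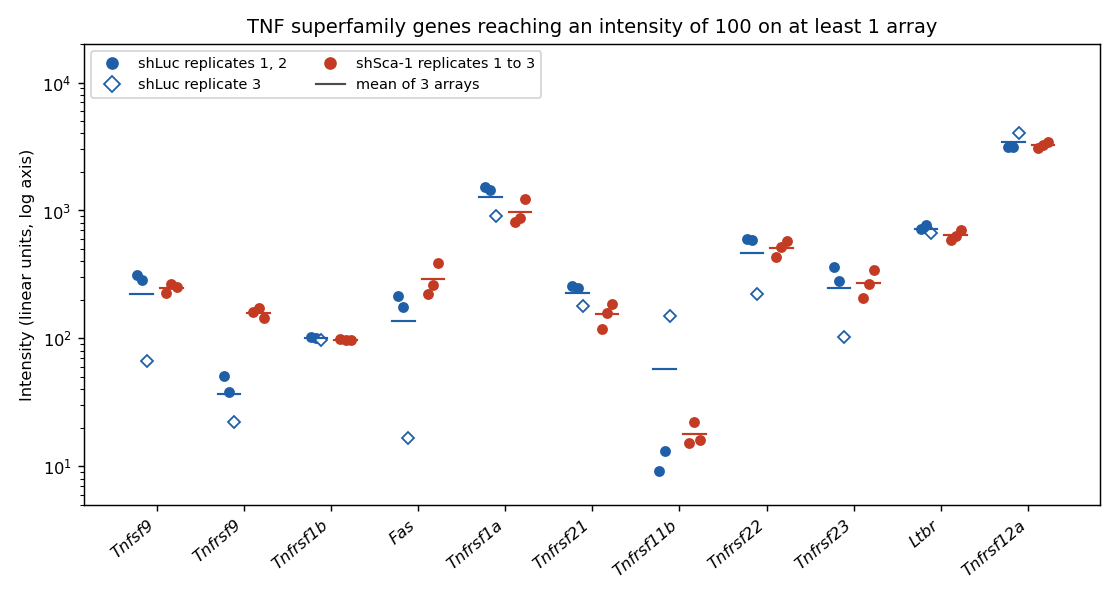
Intensity (log axis) of the 11 TNF superfamily genes that reached 100 on at least 1 array, with each point 1 array and each bar the mean of 3 arrays. Tnfrsf9 lies between 22.4 and 50.9 in shLuc and between 144 and 173 in shSca-1, while Fas, Tnfsf9, Tnfrsf22 and Tnfrsf23 are low and Tnfrsf11b is high on shLuc replicate 3, drawn as an open diamond.

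At an unadjusted p under 0.01 with a fold over 1.5, in limma on 6 arrays, 1 of the 36 genes, Tnfrsf9, was higher in shSca-1 cells (2.78%, against 0.528% of all genes) and none was lower (0 genes, against 1.52% of all genes). No gene of the superfamily passed an adjusted p under 0.05 in limma on 6 arrays (0 genes), nor did any gene in the whole table (0% of all genes). The smallest adjusted p of all probe sets was 0.051 in limma, the value of Ly6a, so even the knockdown target missed this threshold. Without shLuc replicate 3 the adjusted p of Ly6a was 5.2e-07 in limma. At an unadjusted p under 0.05 there were 2 of 36, Tnfrsf9 and Tnfrsf21 (5.56%, against 10.6% of all genes). With 36 genes, these shares rest on very few calls and say nothing particular of the superfamily.

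Without shLuc replicate 3, Tnfrsf9 passed an adjusted p under 0.05 as higher in shSca-1 (1 of 36, or 2.78%, against 1.17% of all genes) and none passed as lower (0 genes, against 2.73% of all genes). By the criterion of an unadjusted p under 0.01 and a fold over 1.5, Tnfrsf9 was again the 1 gene higher (2.78%, against 1.08% of all genes), and Tnfrsf1a and Tnfrsf21 were lower (5.56%, against 2.91% of all genes). All 3 shSca-1 arrays lay above all 3 shLuc arrays for 4 genes, Fas, Tnfrsf25, Tnfrsf9 and Tnfsf4 (11.1%, against 7.18% of all genes), and below them for none (0 genes, against 11.5% of all genes). The difference in mean log2 intensity, shSca-1 minus shLuc, is called the log2 fold change below. Its median over the 36 genes was -0.06 on 6 arrays, beside -0.04 over all genes, and -0.05 without shLuc replicate 3, beside -0.04. On 6 arrays 15 of the 36 values were positive and 21 negative.

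**Figure D2:**
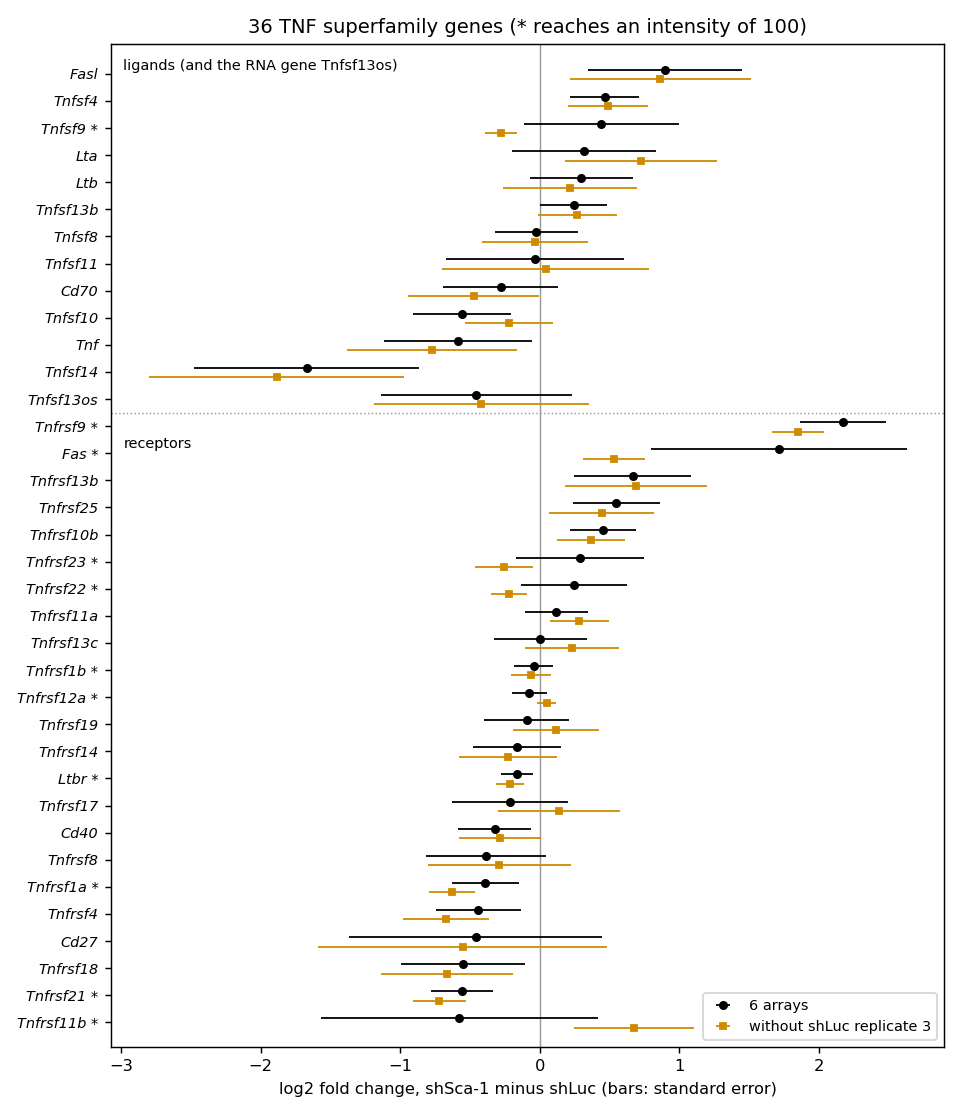
Each of the 36 genes with its log2 fold change (horizontal axis, positive where shSca-1 is higher) and standard error, on 6 arrays (black circles) and without shLuc replicate 3 (orange squares), ligands above and receptors below the dotted line. Tnfrsf9 is the gene farthest to the right in both, at 2.18 and 1.85, while the signs of Tnfsf9, Tnfrsf22, Tnfrsf23 and Tnfrsf11b, among the genes that reach 100, turn when that array is left out, as does the small value of Tnfrsf12a.

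Tnfrsf9 encodes 4-1BB (CD137), a costimulatory receptor best known on activated T cells that recruits TRAF proteins and activates NF-kB. Its intensity was 50.9, 38.1 and 22.4 in shLuc replicates 1, 2 and 3, and 161, 173 and 144 in shSca-1 replicates 1, 2 and 3. The lowest shSca-1 array was well above the highest shLuc array. The means were 37.1 ± 14.3 (SD, n = 3) in shLuc and 159 ± 14.7 (SD, n = 3) in shSca-1 cells. For Tnfrsf9 the log2 fold change came to 2.18 (standard error 0.31, 95% interval 1.45 to 2.91), with an unadjusted p of 0.0002 and an adjusted p of 0.109 in limma, so the adjusted threshold was missed on 6 arrays. Without shLuc replicate 3, the lowest of the 3 control arrays, it was 1.85 (standard error 0.19) with an adjusted p of 0.006 in limma. An exact two-sided permutation test of the 3 arrays against 3 gave p = 0.1, the smallest that this design allows. T and NK cell markers summed to between 90.7 and 122 over the shLuc arrays and between 108 and 151 over the shSca-1 arrays, and none of the 7 measured reached 100 on any array. The 3 shLuc values were near the array medians, and the size of the fold depended on the floor set for low intensities. With intensities under 64 raised to 64, the log2 fold change of Tnfrsf9 was 1.31 (adjusted p = 0.166 in limma). With probe sets at that floor on every array dropped from the fit, a choice made after seeing the data, its adjusted p was 0.0425 in limma. Tnfrsf9 was on the study's own list of changed genes from these samples, so its call is not independent of that list.

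A pair of further probe sets measured Tnfrsf9. The dimmest had intensities of 10.8, 5.99 and 11.9 in shLuc and of 50.5, 67.0 and 32.6 in shSca-1 cells. Its log2 fold change was 2.39 (standard error 0.41, adjusted p = 0.167 in limma), and 2.57 without shLuc replicate 3 (adjusted p = 0.0277 in limma), and its groups did not overlap. The other one had 19.1, 38.3 and 30.6 in shLuc and 52.7, 44.8 and 29.5 in shSca-1 cells. There the groups overlapped, and the log2 fold change was 0.55 (standard error 0.36, unadjusted p = 0.171 in limma). All 3 probe sets had a positive sign, with clearly unequal sizes.

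**Figure D3:**
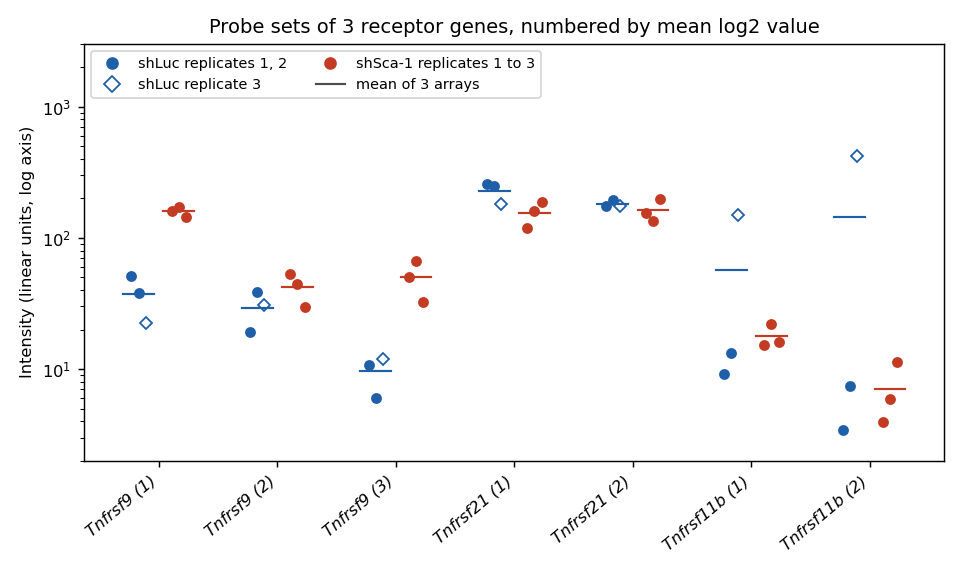
Intensity (log axis) by array of each probe set of Tnfrsf9, Tnfrsf21 and Tnfrsf11b, numbered within a gene from the highest mean log2 value. The brightest and the dimmest Tnfrsf9 probe sets separate the groups and the middle one does not, and both Tnfrsf11b probe sets are high on shLuc replicate 3 alone (149 and 419).

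The reference sequence upstream of Tnfrsf9 is shown because this gene had the smallest p of the superfamily. RefSeq lists 2 starts for it in the mouse assembly GRCm38.p6, both on the plus strand of chromosome 4. Each window runs from 250 bases before a start to 50 after it, 5′ to 3′. The windows are at chr4:150919905-150920204 and chr4:150927749-150928048. Capitals mark matches on either strand to the NF-kB consensus motif and to the AP-1 motif TGANTCA, the latter the site bound by Jun and Fos proteins. AP-1 and NF-kB matches did not overlap each other.
Tnfrsf9 first start: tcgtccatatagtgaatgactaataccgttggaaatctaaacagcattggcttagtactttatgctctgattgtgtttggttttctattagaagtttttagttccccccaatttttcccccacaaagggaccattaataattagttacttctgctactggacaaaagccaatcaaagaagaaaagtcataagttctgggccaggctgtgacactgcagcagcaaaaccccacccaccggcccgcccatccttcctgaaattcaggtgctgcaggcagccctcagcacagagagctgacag
Tnfrsf9 second start: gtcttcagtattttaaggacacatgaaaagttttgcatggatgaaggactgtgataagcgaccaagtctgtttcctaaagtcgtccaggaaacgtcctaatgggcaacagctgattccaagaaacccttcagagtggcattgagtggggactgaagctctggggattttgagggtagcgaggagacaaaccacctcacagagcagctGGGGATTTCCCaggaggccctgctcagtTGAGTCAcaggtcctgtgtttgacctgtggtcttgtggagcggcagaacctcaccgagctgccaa
The first window held no match. The second held 2 overlapping matches to the NF-kB consensus, GGGGATTTCC and GGGATTTCCC, which begin at -43 and -42 from the start, and an AP-1 match, TGAGTCA, at -15.

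Promoter windows were on hand for 28 of the 36 genes. Of these, 4 held an NF-kB consensus match in at least 1 window, Ltb, Tnfrsf25, Tnfrsf8 and Tnfrsf9 (14.3%, against 9.55% of all genes with a window). An AP-1 match was found in 5 (17.9%, against 8.97%). Over single windows the NF-kB motif was in 8.46% and the AP-1 motif in 7.81% of all windows of this length. A match is a description of the letters and not of binding. Cd40, Cd70, Tnfrsf10b, Tnfrsf11b, Tnfrsf22, Tnfsf13os, Tnfsf4 and Tnfsf9 had no window in the table.

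Tnfsf9 encodes 4-1BB ligand, the membrane protein that engages the Tnfrsf9 product. Its intensities were 311, 288 and 67.1 in shLuc and 225, 265 and 252 in shSca-1 cells. The groups overlapped only through shLuc replicate 3, which was 4.45 times lower than the other controls. On 6 arrays the change was 0.44 on the log2 scale (standard error 0.56, unadjusted p = 0.452 in limma). Without that array it was -0.28 (unadjusted p = 0.0436, adjusted p = 0.288 in limma), so the sign of the ligand turned and neither value passed the adjusted threshold. The difference between the changes of ligand and receptor was not tested.

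Among the receptors with a death domain, Tnfrsf1a encodes TNFR1, the widely expressed receptor of TNF. Its intensities were 1514, 1439 and 899 in shLuc and 809.5, 879 and 1224 in shSca-1 cells. The shSca-1 arrays lay below shLuc replicates 1 and 2, and shLuc replicate 3 lay among them. On the log2 scale Tnfrsf1a differed by -0.39 (standard error 0.24, unadjusted p = 0.149 in limma). Without shLuc replicate 3 it was -0.63 (standard error 0.16, unadjusted p = 0.0049, adjusted p = 0.0965 in limma).

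Tnfrsf21 encodes death receptor 6. Its brighter probe set had intensities of 255, 247 and 179.7 in shLuc and 119, 159 and 187 in shSca-1 cells, with only shLuc replicate 3 inside the shSca-1 range. The resulting change was -0.56 on the log2 scale (standard error 0.22, unadjusted p = 0.0399, adjusted p = 0.517 in limma). Without shLuc replicate 3 it was -0.72 (unadjusted p = 0.0058, adjusted p = 0.103 in limma). Its second probe set had 173, 194 and 176 in shLuc and 154, 135 and 197 in shSca-1 cells, with a value of -0.18 on the log2 scale (unadjusted p = 0.337 in limma). The probe sets shared a sign, and shSca-1 replicate 3 was the highest array of the second.

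Fas encodes the receptor of Fas ligand, which forms a caspase-activating complex through the adaptor FADD. Its intensities were 216, 177 and 16.8 in shLuc and 223, 262 and 385 in shSca-1 cells. All 3 shSca-1 arrays were above all 3 shLuc arrays, by little for shLuc replicate 1 and by far for shLuc replicate 3, the latter 11.7 times lower than the other controls. On 6 arrays the value was 1.71 on the log2 scale (standard error 0.92, unadjusted p = 0.104 in limma), and it was 0.53 without shLuc replicate 3 (standard error 0.22, unadjusted p = 0.0455, adjusted p = 0.293 in limma). Most of the fold on 6 arrays rested on that 1 control array, on which the luminal markers were high and the basal markers low. Whether the cell types on that array bear on the Fas value was not tested.

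The last pair of death domain receptors were dim. Tnfrsf10b, the mouse receptor of TRAIL, had 60.6, 39.4 and 40.9 in shLuc and 58.4, 63.9 and 67.1 in shSca-1 cells. Its log2 fold change was 0.45 (unadjusted p = 0.0951 in limma) and 0.37 without shLuc replicate 3 (unadjusted p = 0.175 in limma), and a second probe set gave 0.65 (unadjusted p = 0.0496, adjusted p = 0.539 in limma). Tnfrsf25, the receptor also called death receptor 3, lay between 11.98 and 15.4 in shLuc and between 17.6 and 25.0 in shSca-1 cells, below every array median, with a log2 fold change of 0.55 (unadjusted p = 0.118 in limma), or 0.44 without shLuc replicate 3 (unadjusted p = 0.271 in limma).

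The decoy receptors all turned on shLuc replicate 3. Tnfrsf22 and Tnfrsf23 encode mouse decoy receptors of TRAIL and lie next to each other in the genome. Tnfrsf22 had intensities of 596, 584 and 222 in shLuc and 429, 519 and 579.6 in shSca-1 cells, and Tnfrsf23 had 363, 279.9 and 102 in shLuc and 208, 268 and 339.8 in shSca-1 cells. In both genes shLuc replicate 3 was the lowest of all 6 arrays, 2.65 and 3.12 times lower than the other controls. The log2 fold changes were 0.25 and 0.29 on 6 arrays and -0.22 and -0.26 without it, none with an unadjusted p under 0.05 in limma. A probe set assigned to Tnfrsf22 and Tnfrsf23 together had 1582, 1602 and 354 in shLuc and 977, 1106 and 1588 in shSca-1 cells. It was also lowest on shLuc replicate 3, and the signal of these neighbours cannot be divided there.

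Tnfrsf11b encodes osteoprotegerin, the secreted decoy of RANKL. It was 9.16, 13.1 and 149 in shLuc and 15.2, 22.2 and 15.98 in shSca-1 cells, and its second probe set had 3.41, 7.49 and 419 in shLuc and 3.93, 5.90 and 11.3 in shSca-1 cells. The gene was bright on shLuc replicate 3 alone, and on the other arrays both probe sets were below the array medians. For Tnfrsf11b the log2 fold change was -0.58 (standard error 0.99, unadjusted p = 0.579 in limma) on 6 arrays and 0.68 without that array (unadjusted p = 0.154 in limma). By their brighter probe sets, RANK (Tnfrsf11a) lay between 48.1 and 69.7 and RANKL (Tnfsf11) between 3.5 and 18.1 over all arrays. The log2 fold changes were 0.12 and -0.03, or 0.28 and 0.04 without shLuc replicate 3, with overlapping groups. A second probe set of Tnfsf11 lay between 1.59 and 12.85, and its log2 fold change was 0.67 (unadjusted p = 0.426 in limma). It was 1.47 without shLuc replicate 3 (unadjusted p = 0.0615 in limma). On 6 arrays the probe sets of Tnfsf11 thus differed in sign.

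Over the 11 genes that reached 100, shLuc replicate 3 was more than 1 on the log2 scale below the mean of the other controls for 4 genes, Fas, Tnfrsf22, Tnfrsf23 and Tnfsf9 (36.4%, beside 8.66% of the 9848 genes that reached 100). It was the lowest of all 6 arrays for 5 of the 11 (45.5%, beside 30.7%). Over all 36 genes it was that far below for the same 4 (11.1%, beside 9.39% of all genes), that far above for 4, Lta, Tnfrsf11b, Tnfrsf17 and Tnfsf10 (11.1%, beside 9.93%), and the lowest array for 7 (19.4%, beside 24.3%). These are differences among control samples, and no test was made of them.

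Several bright receptors signal through TRAF proteins without a death domain. Tnfrsf12a encodes Fn14, the receptor of TWEAK. It had intensities of 3106, 3153 and 4066 in shLuc and 3058, 3277 and 3401 in shSca-1 cells. Its log2 fold change was -0.07 (95% interval -0.37 to 0.22), or 0.05 without shLuc replicate 3 (95% interval -0.11 to 0.21). Ltbr, the lymphotoxin beta receptor and a known activator of the noncanonical NF-kB pathway, had 714, 769.99 and 670.1 in shLuc and 589, 634 and 703 in shSca-1 cells. Its log2 fold change was -0.16 (95% interval -0.43 to 0.10), and -0.21 without shLuc replicate 3 (unadjusted p = 0.0644 in limma). Tnfrsf19 (TROY), a dim gene here, gave -0.09 on the log2 scale with values of at most 50.3 by its brightest probe set, or 0.12 without shLuc replicate 3. Its dimmest probe set had 16.4, 7.93 and 94.1 in shLuc and 18.9, 32.8 and 10.6 in shSca-1 cells, again high on shLuc replicate 3 alone, with log2 fold changes of -0.30 and, without that array, 0.72.

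Tnfrsf1b encodes TNFR2, the TNF receptor without a death domain. It lay between 98.1 and 103 in shLuc and between 96.8 and 99.6 in shSca-1 cells, with a log2 fold change of -0.04 (95% interval -0.38 to 0.29). A second, dimmer probe set had 94.6 on shSca-1 replicate 3 and at most 33.5 on the other arrays, so the probe sets of this gene differed in sign. Cd40, a receptor of antigen-presenting cells that some carcinomas also carry, had 42.8, 62.1 and 55.6 in shLuc and 37.4, 36.9 and 54.8 in shSca-1 cells, or -0.32 on the log2 scale (unadjusted p = 0.258 in limma) and -0.29 without shLuc replicate 3. The remaining costimulatory receptors, Cd27, Tnfrsf4 (OX40), Tnfrsf8 (CD30), Tnfrsf14 (HVEM) and Tnfrsf18 (GITR), were all under 100. Of these the highest value was 74.6, Tnfrsf18 on shSca-1 replicate 3. Of the 8 costimulatory receptors, Tnfrsf9 was the 1 with a positive log2 fold change, and the other 7 lay between -0.55 and -0.04, none with an unadjusted p under 0.05 in limma.

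The ligands apart from Tnfsf9 were dim. Tnf itself had intensities of 9.30, 23.6 and 10.0 in shLuc and 6.19, 7.45 and 14.1 in shSca-1 cells, all below the array medians. The change was -0.59 on the log2 scale (standard error 0.53, unadjusted p = 0.307 in limma), and -0.77 without shLuc replicate 3 (unadjusted p = 0.243 in limma). Lta and Ltb, its neighbours in the genome and the genes of the lymphotoxins, did not exceed 15.2 and 12.1. Tnfsf10 (TRAIL) had 27.6, 30.4 and 58.1 in shLuc and 23.2, 21.9 and 30.1 in shSca-1 cells. It was highest on shLuc replicate 3, and its log2 fold change was -0.56 on 6 arrays and -0.22 without that array (unadjusted p = 0.158 and 0.504 in limma). Fasl did not exceed 18.2. Tnfsf4 (OX40 ligand) had 35.9, 24.6 and 31.3 in shLuc and 37.4, 46.8 and 41.7 in shSca-1 cells. Its groups did not overlap, and its log2 fold change of 0.47 had an unadjusted p of 0.103 in limma, beside 0.49 and 0.127 without shLuc replicate 3. The BAFF gene, Tnfsf13b, and its B cell receptor genes Tnfrsf13b, Tnfrsf13c and Tnfrsf17 did not exceed 46.9. For the 25 genes under 100 on every array, the lowest adjusted p in limma was 0.596 (Tnfsf14, which encodes LIGHT), and 0.334 without shLuc replicate 3 (Tnfrsf4).

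TWEAK and APRIL (Tnfsf12 and Tnfsf13) are known here only through probe sets shared by several genes. A probe set assigned to Tnfsf12 and Tnfsfm13 had 81.3, 61.1 and 97.2 in shLuc and 78.3, 59.9 and 76.1 in shSca-1 cells, with a log2 fold change of -0.15 (unadjusted p = 0.55 in limma), or 0.0084 without shLuc replicate 3. Another, assigned to Tnfsfm13, Tnfsf13 and Tnfsf12, had 20.6, 14.8 and 88.6 in shLuc and 15.2, 33.6 and 24.9 in shSca-1 cells. It was highest on shLuc replicate 3, and its value of -0.36 on the log2 scale (unadjusted p = 0.617 in limma) was 0.42 without that array (unadjusted p = 0.365 in limma). The groups overlapped in both, and the signals of the separate genes cannot be divided.

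The genes of the proteins that carry signals from these receptors reached an intensity of 100 more often than the ligand genes. Of 58 listed adaptors, ubiquitin-editing enzymes, caspases, kinases and NF-kB proteins, 52 had a probe set of their own, and 50 of these reached 100. Of all 18193 genes 9848 did, so the shares of all genes below come from a dimmer set. The list was also chosen with earlier results of these data known. On 6 arrays 3 of the 52 listed genes passed an unadjusted p under 0.01 and a fold over 1.5 as higher in shSca-1 cells (5.77%, against 0.528% of all genes). As lower, 1 passed (1.92%, against 1.52%). At an unadjusted p under 0.05 there were 9 of 52 (17.3%, against 10.6%), in both directions. Birc3, Casp8, Nfkbia, Nfkbie, Tnfaip3 and Tnip1 were higher in shSca-1 cells, and Ikbkb, Jun and Tnip2 were lower. Over the 52 genes the median log2 fold change was 0.05 and 0.07 without shLuc replicate 3, beside -0.04 over all genes in both. None passed an adjusted p under 0.05 in limma on 6 arrays. Without shLuc replicate 3, Birc3 and Tnfaip3 were higher by the first criterion (3.85%, against 1.08% of all genes) and Jun and Traf5 lower (3.85%, against 2.91%), and at an adjusted p under 0.05 Birc3 was higher (1.92%, against 1.17%) and Jun and Traf5 lower (3.85%, against 2.73%).

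**Figure D4:**
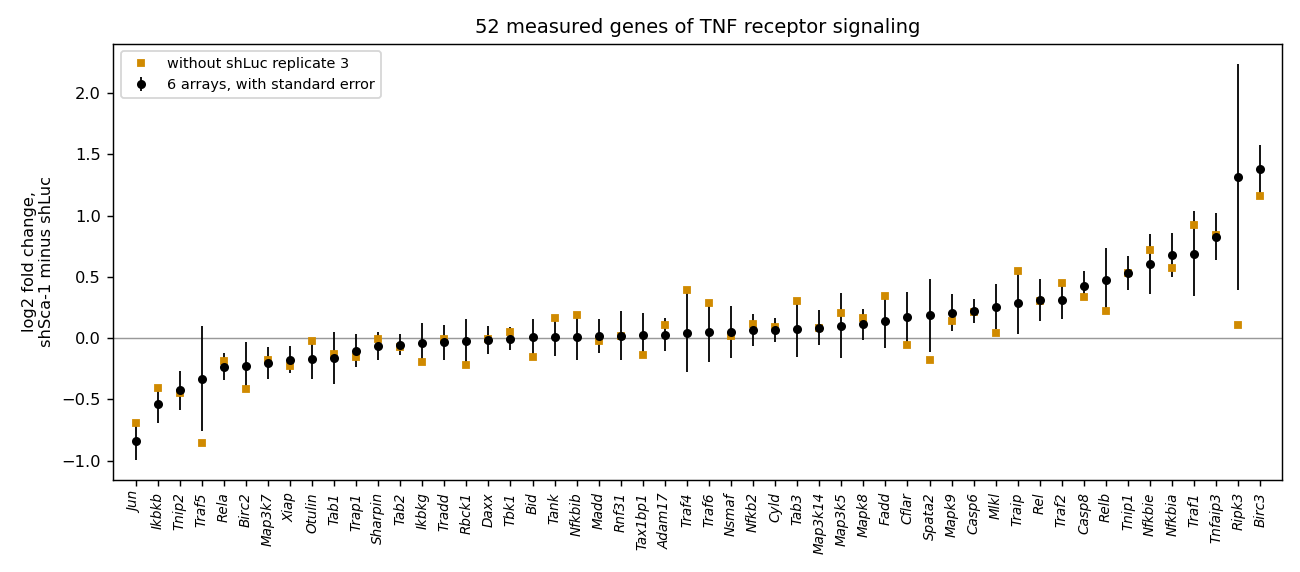
Changes (vertical axis, log2 scale, positive where shSca-1 is higher) of 52 genes of TNF receptor signaling, ordered by the value on 6 arrays (black, with its standard error), with the value without shLuc replicate 3 in orange. Birc3 is the highest, Ripk3 is next but drops to 0.11 without that array, and Jun is the lowest.

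The 3 higher genes were Birc3, Tnfaip3 and Nfkbia, all known both as regulators and as targets of NF-kB. Birc3 encodes the ubiquitin ligase cIAP2, which TNF receptors bring in through TRAF2. It was 139.8, 129 and 85.3 in shLuc and 288, 308 and 304 in shSca-1 cells, and its log2 fold change was 1.38 (standard error 0.20, adjusted p = 0.113 in limma). Without shLuc replicate 3 it was 1.16 (adjusted p = 0.005 in limma). As a mean over its probe sets it was 0.79 and did not pass. Tnfaip3, which encodes the deubiquitinase A20, was between 117 and 131 in shLuc and at 193, 196 and 289 in shSca-1 cells, or 0.83 on the log2 scale (adjusted p = 0.271 in limma) and 0.84 without shLuc replicate 3 (adjusted p = 0.0687 in limma). Nfkbia, which encodes the NF-kB inhibitor, had a log2 fold change of 0.68 (adjusted p = 0.331 in limma), and 0.57 without shLuc replicate 3, which is under the fold used. The call of Nfkbia was lost under 12 of 19 alternative settings and that of Tnfaip3 under 5 of 19. These genes had been singled out in an earlier analysis of the same arrays.

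Jun, a subunit of AP-1 and a target of the JNK kinases downstream of TNF receptors, went the other way. Its intensities were 1034, 950.3 and 1353 in shLuc and 582, 671 and 591 in shSca-1 cells, with no overlap. For Jun the log2 fold change was -0.84 (standard error 0.15, adjusted p = 0.176 in limma) and -0.69 without shLuc replicate 3, the highest control (adjusted p = 0.0138 in limma). Traf5 encodes an adaptor of several costimulatory receptors. It was 207, 217 and 70.4 in shLuc and 103, 120.5 and 128 in shSca-1 cells, so shLuc replicate 3 alone lay below the range of the shSca-1 arrays. The change was -0.33 on the log2 scale (unadjusted p = 0.462 in limma), and -0.86 without that array (adjusted p = 0.0256 in limma). Ripk3, the kinase of necroptosis, had 809, 827 and 66.3 in shLuc and 731, 856 and 1091 in shSca-1 cells. Its shLuc replicate 3 was far below every other array, as for Fas. The log2 fold change of 1.31 on 6 arrays was 0.11 without that array (unadjusted p = 0.504 in limma).

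Of 10 further family genes outside the naming rule, such as Eda, Edar and Ngfr, 0 passed an unadjusted p under 0.05 in limma (against 10.6% of all genes). Eda2r, a receptor of ectodysplasin, had 138, 147 and 12.5 in shLuc and 149, 152 and 101 in shSca-1 cells, and was low on shLuc replicate 3 as well. Its log2 fold change was 1.06 on 6 arrays and -0.11 without shLuc replicate 3 (unadjusted p = 0.281 and 0.588 in limma).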

How the data were processed

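The authors hybridized RNA from 3 shLuc and 3 shSca-1 samples to whole-genome Affymetrix mouse arrays and deposited linear intensity values from dChip (PM-MM model, invariant set normalization). The software version and genome build are not given in the sources used here. Of 45101 probe sets, 64 controls were left out and 45037 tested. Probe sets were named from the platform annotation, and 34945 had 1 gene. Intensities were raised to at least 1 and put on the log2 scale. The contrast of shSca-1 with shLuc was fitted in limma 3.58.1 (R 4.3.3, eBayes with a variance trend, tested on simulated data), with Benjamini-Hochberg adjustment over all probe sets tested. Limma's values were also held against the thresholds of the methods (unadjusted p under 0.01, fold over 1.5). Each gene is represented by its probe set of highest mean log2 value. No depth exists for arrays, and their number limits the precision.

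Superfamily genes were named by p, by known role, as partners of such genes, or where 1 array stood at least 4 times apart. Ripk3 and Eda2r, which are no superfamily genes by that rule, and the dim genes given by range were named after their values were seen. So were the signaling genes listed only at an unadjusted p under 0.05. Members and lists were chosen with earlier results of these data known. Alternatives were quantile normalization, median centring, floors of 16 and 64, a filter on the dimmest 40 percent, other variance priors, the methods' t-test, the mean of a gene's probe sets, a replicate block and each array left out. Floor fits without the probe sets at the floor on every array, and the floor of 64 without shLuc replicate 3, were added after seeing the data.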

Additional observations from a re-analysis of the deposited data

How the results depend on the processing

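Tnfrsf9 was the 1 superfamily gene called higher at an unadjusted p under 0.01 and a fold over 1.5 under all 19 alternatives, with a log2 fold change between 1.31 (floor of 64) and 2.44 (without shLuc replicate 1). Over the 19 its adjusted p, from limma or the methods' t-test, ranged from 0.006 to 0.587. It passed an adjusted p under 0.05 in limma under 3 of the 19. The count at that threshold went from 0 to 1 with a robust variance prior and with a floor of 64 when probe sets at that floor on every array were dropped, a choice made after seeing the data (adjusted p of Tnfrsf9 0.0425, but 0.166 with them kept and 0.132 with them kept and without shLuc replicate 3), and ranged from 0 to 1 when single arrays were left out, being 1 without shLuc replicate 3. The count of lower superfamily genes ranged from 0 to 2 when single arrays were left out, with 2 without shLuc replicate 3 (Tnfrsf1a and Tnfrsf21) and 1 without shSca-1 replicate 3 (Tnfrsf18), and was 0 under every other alternative. For TNF receptor signaling, the count of higher genes went from 3 to 1 with the methods' t-test, with the floor of 64 and with that floor without shLuc replicate 3 (Birc3 in each) and with the mean of a gene's probe sets (Nfkbia), and ranged from 1 to 4 with single arrays left out, the 1 being without shLuc replicate 2 (Birc3). The count of lower genes ranged from 1 to 2 in those fits, with 2 without shLuc replicate 1 (Ikbkb and Jun) or 3 (Jun and Traf5), and was 2 with the floor of 64 without shLuc replicate 3 (Jun and Traf5). The call of Nfkbia was lost under 12 of the 19 alternatives, that of Tnfaip3 under 5 and that of Birc3 under 1. Of 594 values for the 36 genes under the alternatives, 553 kept the direction, 41 in 18 genes did not, none of them called, and no called gene turned. The causes were not tested. Arrays that share a replicate number did not deviate together, with correlations of deviations of -0.04, -0.02 and -0.03. With the number as a replicate block, the superfamily counts were the same (1 higher, 0 lower), the signaling counts were 2 and 1, and Tnfrsf9 had an adjusted p of 0.354. No scaling moved the median of all probe sets by over 0.1 on the log2 scale. Values near the array medians limit what can be said of the 25 dim genes.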
